A study of Medicago sativa with 15 samples.

Results

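Of the 164632 gene IDs measured in alfalfa (Medicago sativa) roots, 9 had no read in any of the 3 control libraries and at least 5 CPM (counts per 1000000 counts of the library) in at least 8 of the 12 libraries from roots under alkaline stress. The 9 were chosen by exactly these values, so their absence in control and their level under stress are descriptions and carry no test. They are MS.gene002997, MS.gene77725, MS.gene72495, MS.gene96117, MS.gene054616, MS.gene80525, MS.gene03499, MS.gene61659 and MS.gene46686. Seedling roots grown normally served as control, and stressed roots were taken 4, 8, 12 or 24 h into a treatment with NaHCO3 at 50 mmol/L; each of these 5 groups has 3 RNA libraries, 15 in all. The time, and whether roots were control or under alkaline stress, were read from the titles, since the treatment field names alkaline stress for the control libraries too. The titles do not name NaHCO3, its concentration or seedlings. No cultivar, seedling age or control time is given in the sources used here, and nothing says that the replicates were separate plants. The p-values thus reflect how far the libraries of a group lie apart, which can be technical variation.

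Sodium bicarbonate raises the pH and the bicarbonate and sodium around a root. At high pH iron and phosphate become less soluble and the proton gradient that drives nutrient uptake across the root cell membrane is weakened, and sodium has to be kept out of the cytosol. Roots are known to answer with changes in proton pumping, organic acid release, sodium transport and protection against reactive oxygen. The tables give IDs alone, and 0 of the 9 could be matched to the RefSeq gene table (assembly Bolivia_mono). No function, position or sequence is therefore given, and root marker genes were not checked. In bulk RNA, more cells of a type and more RNA per cell cannot be told apart.

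The 15 libraries held between 6863315 and 15180708 counts. Every stress time had a library whose values fell in the middle of its group at most genes (those with at least 300 counts over the group). At 4 h this was replicate 2 (79.0% of genes), at 8 h it was replicate 3 (75.6%), and at 12 h and 24 h it was replicate 1 (79.3% and 72.1%). Among the control libraries the share was 23.1% to 38.8%. These 4 stressed libraries are called intermediate here. For the 9 genes, the intermediate library lay between the other 2 in 33 of 36 combinations of gene and time. In 29 of 36 it was within 25 percent of their mean. The share of all genes within 25 percent was not worked out, so that number is a description. The closest of the 36 was MS.gene77725 at 8 h, with 208.6 CPM in the intermediate library and a mean of 208.2 CPM in the other 2. They were also the 4 shallowest stressed libraries, with 6863315 to 7621064 counts, against 12204421 to 15180708 in the other 8. Values near the mean of the other 2 libraries are what a mixture of them would give, and whether these libraries are mixtures was not tested. If they are, n = 3 stands for 2 independent libraries at each stress time, and the SDs, SEs and p-values with 15 libraries are too small. Results are therefore given with and without the 4.

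**Figure D1:**
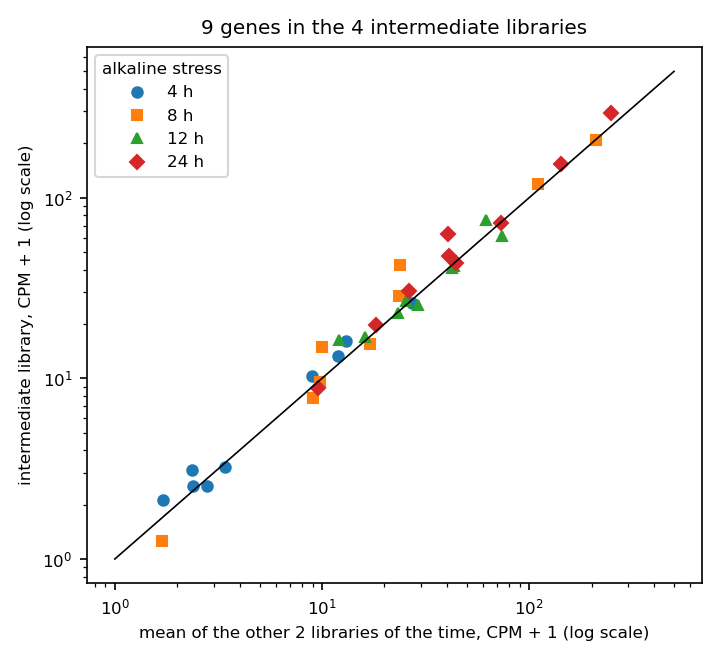
Each point is 1 of the 9 genes at 1 stress time. The level in the intermediate library (vertical axis, CPM + 1, log scale) is plotted against the mean of the other 2 libraries of that time (horizontal axis, CPM + 1, log scale), with the line of equality. The ratio of the intermediate library to that mean had a median of 1.07 and ran from 0.379 to 1.81.

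Silence in control was read at a combined depth of 39038586 counts. A count of 0 was taken to allow up to 3 counts at that depth, or 0.0768 CPM. This covers counting error only, for a gene fixed in advance, and the 9 were picked for their 0 counts. Genes with this pattern were few. Of the 20260 genes at 5 CPM in at least 8 stressed libraries, 20158 (99.5%) had more than 30 counts in the controls together and 9 (0.0444%) had none. Another 9 had between 1 and 5 control counts, so that the 9 silent genes were not separated by a gap from genes with a few reads in control. From the other side, 15363 genes had no control count and a count in some stressed library, and 14995 of them reached 5 CPM in no stressed library.

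None of the 9 was on everywhere under stress. MS.gene96117 reached 5 CPM in 11 of 12 stressed libraries, MS.gene72495 and MS.gene77725 in 10, and the other 6 genes in exactly 8, the smallest number the rule accepts. No gene without a control count reached 5 CPM in all 12 stressed libraries. Of the 108 values (9 genes in 12 stressed libraries), 79 were at 5 CPM or more, 10 were below 1 CPM and 2 were without a count. In the 8 libraries that are not intermediate, 49 of 72 values were at 5 CPM or more, and 3 genes (MS.gene96117, MS.gene72495 and MS.gene77725) reached that level in at least 6 of the 8.

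**Figure D2:**
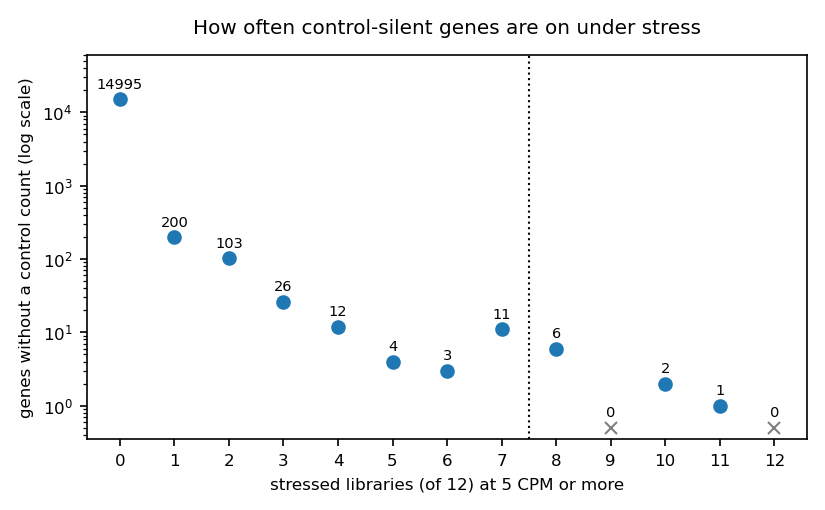
The 15363 genes without a control count, by the number of stressed libraries in which they reached 5 CPM (horizontal axis); the vertical axis gives the number of genes on a log scale, crosses mark 0 genes, and the dotted line marks the rule's limit. Genes at 7 libraries (11 genes) outnumbered those at 8 (6 genes).

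Just inside the limit, by the 8th highest of their 12 values, were MS.gene054616 (6.06 CPM) and MS.gene80525 (6.37 CPM). Just outside were MS.gene92732 (4.99 CPM) and MS.gene56445 (4.61 CPM), both without a control count and both at 5 CPM in 7 libraries. MS.gene92732 had at most 0.688 CPM in the 4 h libraries and between 14.8 and 24.5 CPM in the 24 h libraries, and its length, 1323 nt, equals that of MS.gene46686. The limit thus divides genes with similar values. The number of genes that meet the rule also moved with single libraries. It was 14 without control replicate 1, and leaving out a control library can only add genes. With 8 libraries still required, it was 4 without 8 h replicate 1 or 3 and 5 without 24 h replicate 2. It was 3 without any 1 of the other 12 h or 24 h libraries. Leaving out a stressed library in this way can only remove genes.

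Levels are compared between genes per length, as FPKM (fragments per kilobase of gene length and per 1000000), over the 12 stressed libraries. MS.gene002997 (405 nt of coding length) had the highest mean at 218 FPKM, followed by MS.gene77725 (594 nt) at 139 FPKM, MS.gene72495 (594 nt) at 131 FPKM, MS.gene054616 (441 nt) at 51.0 FPKM and MS.gene96117 (1176 nt) at 31.1 FPKM. Means of MS.gene80525 and MS.gene03499 (987 nt each) were 20.7 and 15.6 FPKM, and those of MS.gene46686 (1323 nt) and MS.gene61659 (1497 nt) were 8.58 and 7.88 FPKM. By the median library the order of the first 3 differed, with MS.gene72495 at 103 FPKM, MS.gene002997 at 85.0 FPKM and MS.gene77725 at 47.7 FPKM. The 4 genes with the highest mean FPKM were thus also the 4 shortest. The median length of the 9 was 987 nt, against 1203 nt for all genes at 5 CPM in at least 8 stressed libraries.

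The time of stress was not used by the rule, and 7 of the 9 genes had their lowest mean at 4 h. The share of all genes lowest at 4 h was not worked out, so this number is a description. By the rule, the 6 genes at exactly 8 libraries are below 5 CPM in the rest, which can fall together at 1 time. MS.gene002997 had the largest log2 difference of the 9 between 24 h and 4 h. It had 0.534, 1.12 and 0.894 CPM in 4 h replicates 1, 2 and 3, then 41.4, 3.82 and 27.4 CPM at 8 h, 74.3, 6.52 and 115 CPM at 12 h, and 293, 83.4 and 413 CPM at 24 h. The 3 libraries at 24 h and the 3 at 4 h did not overlap, and its level in 24 h replicate 3 was above that of 99.86% of the genes detected there, by FPKM. At 8 h and 12 h replicate 2 lay far below the others of its time, though above every 4 h library.

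MS.gene054616 and MS.gene80525 also had their lowest mean at 4 h and their highest at 24 h, but between these times the mean of MS.gene054616 was lower at 12 h than at 8 h, and that of MS.gene80525 was higher. MS.gene054616 had 0.916, 1.54 and 1.86 CPM at 4 h, 44.4, 1.12 and 41.2 CPM at 8 h, 15.3, 6.06 and 16.2 CPM at 12 h, and 62.1, 46.3 and 32.8 CPM at 24 h. Its 8 h replicate 2 stood within the range of the 4 h libraries, and every 24 h library stood above every 12 h library. MS.gene80525 had 0.992, 2.09 and 1.72 CPM at 4 h, 23.5, 8.43 and 14.4 CPM at 8 h, 21.9, 6.37 and 38.2 CPM at 12 h, and 46.7, 4.64 and 75.8 CPM at 24 h. Every library of the 3 later times was above every 4 h library, although 24 h replicate 2, at 4.64 CPM, stood far below the other 24 h libraries.

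MS.gene03499 and MS.gene46686 were lower, and both were near the limit of counting in 4 h replicate 1. MS.gene03499 had 0.229, 2.23 and 4.61 CPM at 4 h, 13.9, 2.24 and 6.82 CPM at 8 h, 25.9, 9.24 and 39.6 CPM at 12 h, and 29.5, 14.4 and 36.2 CPM at 24 h. MS.gene46686 had 0, 1.54 and 3.58 CPM at 4 h, 16.5, 1.52 and 13.9 CPM at 8 h, 16.0, 11.1 and 19.0 CPM at 12 h, and 18.7, 12.9 and 21.6 CPM at 24 h. In both genes the 12 h and 24 h libraries overlapped each other and lay above all 4 h libraries, and 8 h replicate 2 lay within the 4 h range.

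The 594 nt genes MS.gene72495 and MS.gene77725 were uneven between libraries of 1 time. MS.gene72495 had 0.153, 15.1 and 24.1 CPM at 4 h, 211, 7.11 and 118 CPM at 8 h, 39.6, 0.227 and 82.3 CPM at 12 h, and 153, 193 and 90.6 CPM at 24 h. Only the 24 h libraries were all high, and 12 h replicates 3 and 2 differed 362-fold, on 1005 and 3 counts. MS.gene77725 had 13.4, 9.36 and 2.61 CPM at 4 h, 406, 10.5 and 209 CPM at 8 h, 40.7, 2.12 and 82.6 CPM at 12 h, and 71.7, 16.0 and 128 CPM at 24 h. Its 8 h libraries overlapped the 4 h libraries through replicate 2, and at 4 h replicate 1 it was high where MS.gene72495 had only 2 counts.

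The other genes, MS.gene96117 and MS.gene61659, were lowest at 8 h and highest at 12 h by their means. MS.gene96117 had 33.1, 25.1 and 19.3 CPM at 4 h, 4.55, 13.0 and 8.53 CPM at 8 h, 60.2, 33.5 and 112 CPM at 12 h, and 42.6, 6.72 and 80.3 CPM at 24 h. Its 8 h libraries were all below its 4 h and 12 h libraries, while 24 h replicate 2 lay within the 8 h range. MS.gene61659 had 9.54, 12.3 and 12.4 CPM at 4 h, 0, 1.38 and 0.262 CPM at 8 h, 24.6, 46.3 and 9.75 CPM at 12 h, and 7.83, 1.76 and 15.3 CPM at 24 h. It was thus nearly silent at 8 h, with 23 counts in the 3 libraries together, and on at 4 h and 12 h.

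**Figure D3:**
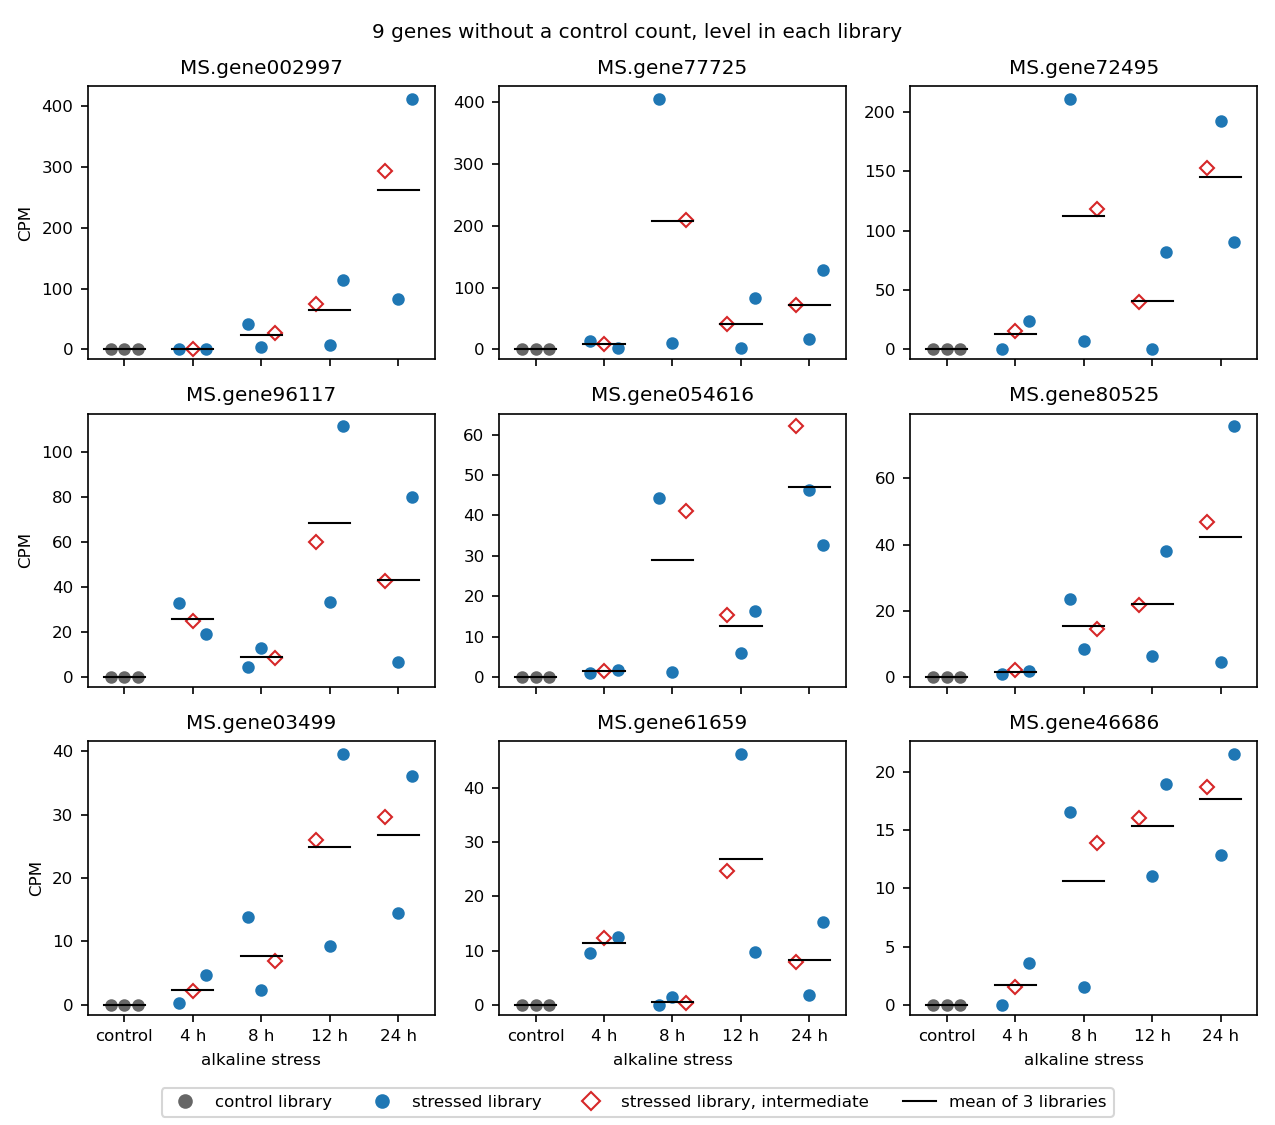
Level of each of the 9 genes (vertical axis, CPM, own scale for each gene) in control and after 4, 8, 12 and 24 h of alkaline stress; points are single libraries in the order of replicates 1, 2 and 3, open diamonds are the 4 intermediate libraries, and bars are means of 3 libraries. All control libraries are at 0 by the rule, 7 genes have their lowest mean at 4 h, and MS.gene96117 and MS.gene61659 have theirs at 8 h.

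Against control each level is given as a lower bound, computed from the pooled counts of a time against 3 counts over the 3 control libraries. The genes were picked for having no control count, so these bounds can be too high. For MS.gene002997 the level was at least 10.5-fold higher at 4 h, 297-fold at 8 h, 805-fold at 12 h and 3488-fold at 24 h. MS.gene96117 was at least 334-fold, 116-fold, 894-fold and 594-fold higher at 4, 8, 12 and 24 h. MS.gene61659 was at least 147-fold, 8.22-fold, 363-fold and 115-fold higher. MS.gene46686, the lowest by mean CPM, was at least 23.6-fold higher at 4 h and 232-fold at 24 h. The summed counts of the 9 genes were at least 863-fold higher than control at 4 h, 5169-fold at 8 h, 4058-fold at 12 h and 8735-fold at 24 h, and without the 4 intermediate libraries the bounds were 849, 5023, 4034 and 8547. Leaving out 1 stressed library moved 23 of the 36 bounds of single genes and times by over 1.5 times. The bound of MS.gene002997 at 24 h was 2090-fold without replicate 3. At 8 h, replicate 2 held 21 of the 23 counts of MS.gene61659, and the 2 counts left without it are too few for a bound. MS.gene61659 had a bound of 197-fold at 12 h without replicate 2 and 52.0-fold at 24 h without replicate 3. The bound of MS.gene46686 at 4 h was 7.06-fold without replicate 3 and 37.8-fold without replicate 1, and those of MS.gene96117 were 555-fold at 12 h and 259-fold at 24 h without replicate 3. Dropping 1 control library lowered every bound, through the smaller control total alone. For the summed counts of the 9 genes, leaving out 8 h replicate 1 or 2 moved the 8 h bound to 2338 or 8407. Leaving out 12 h replicate 3 lowered the 12 h bound of the summed counts to 2457.

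The leading gene of these sums differed between libraries, and its share ran from 22.3% in 12 h replicate 3 to 56.3% in 4 h replicate 1. MS.gene96117 gave 56.3% of the summed CPM in 4 h replicate 1, MS.gene77725 gave 53.3% in 8 h replicate 1, and MS.gene002997 gave 46.2% in 24 h replicate 3. The sum in 8 h replicate 1 was 762 CPM and in 8 h replicate 2 it was 49.1 CPM, below each of the 4 h libraries, which had 58.8, 70.4 and 71.0 CPM. The 24 h libraries had 725, 379 and 894 CPM.

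Differences between times of stress were tested with edgeR's quasi-likelihood test on all genes, with the 5 groups in 1 model; Benjamini-Hochberg adjustment took in all 68605 genes tested. All 9 genes passed the filter on low counts. A gene at 8 libraries has the other 4 below the limit, so a gene can be low at 1 whole time and still be a member. Among the 4 times together, 5 of the 9 genes changed, against 21.9% of all genes tested. These were MS.gene002997 (edgeR adjusted p = 0.00385), MS.gene054616 (0.0176), MS.gene80525 (0.0217), MS.gene61659 (0.0241) and MS.gene03499 (0.0480). The 3 control libraries, at 0 counts for the 9 genes by the rule, share in the model's estimate of the spread. With the 12 stressed libraries alone, 4 of the 9 passed among the 4 times (18.8% of all genes). At 24 h against 4 h that fit called 4 (14.3%), and at 8 h against 4 h also 4 (9.74%). At 12 h against 8 h it called 1 (1.16%), and at 24 h against 12 h 0 (2.11%).

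At 24 h compared with 4 h, 4 of the 9 genes were higher and 0 lower, where 15.4% of all genes were called in either direction, 9.41% as higher and 5.98% as lower. MS.gene002997 had 263 ± 167 CPM at 24 h and 0.848 ± 0.294 CPM at 4 h (SD, n = 3 each), a log2 difference of 8.30 ± 1.26 (SE, edgeR adjusted p = 0.00198). MS.gene054616 had 47.1 ± 14.7 CPM at 24 h and 1.44 ± 0.479 CPM at 4 h, a log2 difference of 5.06 ± 1.02 (edgeR adjusted p = 0.00778). For MS.gene80525 (42.4 ± 35.8 CPM at 24 h, 1.60 ± 0.561 CPM at 4 h) the log2 difference was 4.75 ± 0.97 (edgeR adjusted p = 0.0083). MS.gene03499 rose by 3.49 ± 0.97 on the log2 scale (edgeR adjusted p = 0.0293). MS.gene46686 (log2 difference 3.36 ± 1.11, edgeR adjusted p = 0.0539), MS.gene72495 (3.50 ± 1.58, 0.141) and MS.gene77725 (3.12 ± 1.26, 0.104) had differences of similar size that did not pass, and MS.gene96117 (0.76 ± 0.72) and MS.gene61659 (-0.45 ± 0.93) had small ones. The median log2 difference of the 9 was 3.49, and that of all genes tested was 0.09. The rule asks for no control counts and lets some stressed libraries be low, and all genes tested were under no such rule. These medians are therefore set side by side and were not tested.

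Already at 8 h compared with 4 h, 4 genes were higher and 1 lower, where 10.5% of all genes were called in either direction, 6.74% as higher and 3.75% as lower. The higher genes were MS.gene002997 (log2 difference 4.87 ± 1.10 SE, edgeR adjusted p = 0.0168), MS.gene77725 (4.67 ± 1.35, 0.0434), MS.gene054616 (4.33 ± 0.99, 0.0181) and MS.gene80525 (3.30 ± 0.92, 0.0373). The lower gene was MS.gene61659, with 0.549 ± 0.735 CPM at 8 h and 11.4 ± 1.64 CPM at 4 h, a log2 difference of -4.28 ± 1.09 (edgeR adjusted p = 0.0276). MS.gene96117 had a difference in the same direction, -1.56 ± 0.73, that did not pass (edgeR adjusted p = 0.178). The median log2 difference of the 9 was 3.11, and that of all genes tested, which were under no such rule, was 0.07. These 8 h medians too were not tested.

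From 8 h onwards fewer differences passed. At 12 h compared with 8 h, 1 of 9 genes was called, as higher, and 1.82% of all genes were (0.972% higher, 0.851% lower). That gene was MS.gene61659, with 26.9 ± 18.4 CPM at 12 h and 0.549 ± 0.735 CPM at 8 h, a log2 difference of 5.43 ± 1.14 (edgeR adjusted p = 0.0335). MS.gene96117, with 68.4 ± 39.7 CPM at 12 h and 8.69 ± 4.21 CPM at 8 h, did not pass (2.97 ± 0.77, edgeR adjusted p = 0.0627). At 24 h compared with 12 h 0 of 9 genes passed in edgeR, with 2 at an unadjusted p below 0.05, where edgeR called 2.81% of all genes (1.17% higher, 1.65% lower) and 14607 had an unadjusted p below 0.05. DESeq2 also called 0 of the 9, and 10.8% of all genes.

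None of these calls held without the intermediate libraries. With the 11 libraries left without them edgeR called 0 genes of 71665 in each of these 5 comparisons (0% of all genes tested). The number at an unadjusted p below 0.05 was 7606 of all genes and 3 of the 9 among the 4 times, 9268 and 4 for 24 h against 4 h, 7636 and 5 for 8 h against 4 h, 4030 and 2 for 12 h against 8 h, and 4526 and 0 for 24 h against 12 h. The log2 differences themselves moved little. The libraries left out lay mostly near the mean of the other 2 of their time, so leaving them out could hardly move these differences. For 24 h against 4 h they were 8.38 ± 1.81 for MS.gene002997 (edgeR adjusted p = 0.178), 4.83 ± 1.46 for MS.gene80525 (0.252), 4.81 ± 1.49 for MS.gene054616 (0.263) and 3.33 ± 1.45 for MS.gene03499 (0.372). For MS.gene61659 they were -3.97 ± 1.61 for 8 h against 4 h (0.436) and 5.20 ± 1.70 for 12 h against 8 h (0.861).

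**Figure D4:**
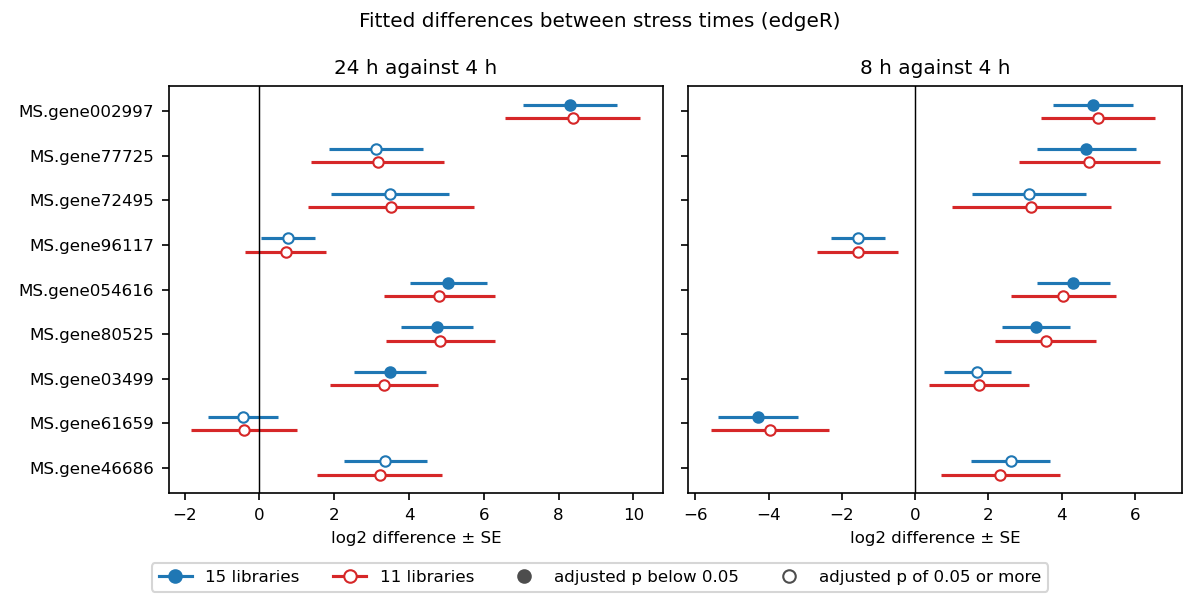
Fitted log2 differences ± SE (horizontal axis) of the 9 genes for 24 h against 4 h (left) and 8 h against 4 h (right), with all 15 libraries (blue) and with the 11 libraries left without the intermediate ones (red); filled points have an edgeR adjusted p below 0.05. With 15 libraries 4 and 5 genes are filled, and with 11 libraries none is. The points stand at nearly the same places with wider error bars. Leaving out libraries that mostly lay near the mean of the other 2 could hardly move them.

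Single libraries also decided calls among the 15. For 24 h against 4 h, MS.gene002997, MS.gene054616 and MS.gene80525 passed whichever 1 library was left out (highest edgeR adjusted p 0.0134, 0.0406 and 0.0383, each without 4 h replicate 2). MS.gene03499 missed the threshold without 4 h replicate 1 or 2 or 24 h replicate 1 or 3 (0.0571, 0.104, 0.0736 and 0.0669). For 8 h against 4 h the 5 calls fell to 1, 0 and 2 without 4 h replicates 1, 2 and 3, to 2 and 1 without 8 h replicates 1 and 3, and to 3 without 12 h replicate 1 or 24 h replicate 1. The share called over all genes, 10.5% with 15 libraries, was lower too, at 5.92%, 2.16% and 6.87% without 4 h replicates 1, 2 and 3, 7.01% and 2.82% without 8 h replicates 1 and 3, 6.11% without 12 h replicate 1 and 6.03% without 24 h replicate 1. The call of MS.gene61659 at 12 h against 8 h was lost without 4 h replicate 2, 8 h replicate 1 or 3, 12 h replicate 1 or 2, or 24 h replicate 1 (edgeR adjusted p 0.0572 to 0.162), and 2 genes passed without 24 h replicate 2 (1.46% of all genes). Among the 4 times together the 5 calls became 3 without 4 h replicate 1, 8 h replicate 3 or 12 h replicate 1, and 2 without 4 h replicate 2, where 18.8%, 10.5%, 10.4% and 8.68% of all genes passed.

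The 2 libraries of a time that are not intermediate were often far apart at these genes. At 8 h 7 of the 9 genes differed over 5-fold between replicates 1 and 2, with a median ratio of 10.9 (each library given at least 1 count). At 4 h, 12 h and 24 h 4 of the 9 did so each time. The median ratio was 2.03 at 4 h, 4.75 at 12 h and 4.95 at 24 h. Over all 20260 genes at 5 CPM in at least 8 stressed libraries it was 2.14, 1.78, 2.01 and 1.62 at 4, 8, 12 and 24 h. The share of them that differed over 5-fold was 20.5%, 11.3%, 16.6% and 7.76% at these times. Of these 20260 genes, 9433 were at 5 CPM in all 12 stressed libraries, as none of the 9 was, so the figures are set side by side and were not tested.

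The same libraries were high at several of the genes. At 8 h replicate 1 was above replicate 2 at 7 genes, all but MS.gene96117 and MS.gene61659. At 12 h replicate 3 was above replicate 2 at 8 genes, all but MS.gene61659. At 24 h replicate 3 was above replicate 2 at 7 genes, all but MS.gene72495 and MS.gene054616. At 4 h replicate 3 was above replicate 1 at 7 genes, all but MS.gene77725 and MS.gene96117. For all genes, the share higher in these same replicates was not worked out, so the counts are descriptions. Whether they set these genes apart from other genes was not tested.

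Likeness between genes was described by Pearson's r of log2(CPM + 1) over the 8 stressed libraries that are not intermediate. Points share their library and its depth, and r is given without a test. The closest of the 36 pairs was MS.gene03499 and MS.gene46686 (r = 0.969), followed by MS.gene002997 with MS.gene03499 (0.904) and with MS.gene054616 (0.889). The 7 genes lowest at 4 h had r between 0.513 and 0.969 with each other, and 22 of the 36 pairs were above 0.5. The 8 libraries include those of 4 h, so positive r among genes grouped by a low mean at 4 h is partly built in. The r of other genes over these libraries was not worked out. MS.gene96117 and MS.gene61659 had r = 0.743 with each other, and MS.gene61659 had r = -0.550 with MS.gene72495 and -0.513 with MS.gene77725.

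**Figure D5:**
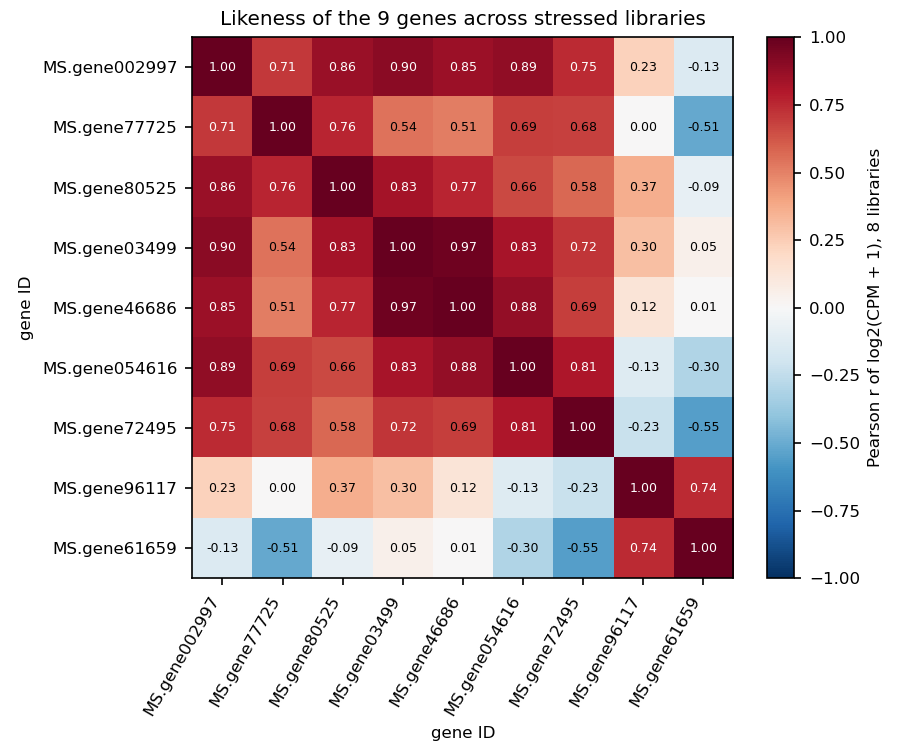
Pearson's r of log2(CPM + 1) over the 8 stressed libraries that are not intermediate, for each pair of the 9 genes (rows and columns are gene IDs, colour and number give r). A block of 7 genes has r of 0.513 or more, and MS.gene96117 and MS.gene61659 stand outside it. The order of the genes was set by hand. The 7 are those with their lowest mean at 4 h, a time that the 8 libraries include.

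Copies of a gene in this tetraploid genome can share reads, so genes of equal length were set beside each other. MS.gene72495 and MS.gene77725 share a length of 594 nt, found in 171 of the 108456 genes with a count, and had r = 0.681. MS.gene80525 and MS.gene03499 share 987 nt and had r = 0.829. MS.gene77725 and MS.gene72495 were far apart in some libraries and close in others. In 4 h replicate 1 they had 175 and 2 counts, and in 24 h replicate 2 they had 200 and 2410. In 12 h replicate 1 they had 279 and 272 counts, and in 12 h replicate 3 they had 1008 and 1005. Whether either pair consists of copies was not tested, since no sequences were at hand.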

How the data were processed

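The authors deposited 2 tables for 15 libraries: raw read counts per gene, and FPKM for the same 164632 gene IDs. Gene lengths were worked out from the deposited FPKM, counts and totals; for each of 108456 detected genes the 15 libraries returned the same length (tolerance 0.01 nt). They are called coding lengths, since 95.96% are multiples of 3. Aligner, counter, genome build, strandedness and the handling of multi-mapped reads: not given in the sources used here. Per the labels' protocols, library preparation used a SMARTer kit for mRNA.

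CPM is the count divided by the library's total count and multiplied by 1000000. The test on counts was edgeR's (version 4.0.16, R 4.3.3: filterByExpr, TMM scaling, glmQLFit and glmQLFTest, two-sided, threshold 0.05); the standard error is the log2 difference divided by the square root of F. All IDs named in the text come from a rule on level, change, threshold, length and spread, which took in all 9 genes. The genes, the tests and the list of intermediate libraries were chosen with earlier results of these data known. Alternatives were the 11 libraries, the 12 stressed libraries alone, DESeq2 1.42.0 or its size factors, no filter, a replicate block, a threshold of 0.01, and each library left out.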

Additional observations from a re-analysis of the deposited data

Results flagged for a closer look

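The level under stress differed between times, by edgeR's test with 15 libraries, at the following genes, and none of these differences passed with the 11 libraries left without the intermediate ones. At 24 h against 4 h the log2 differences were 8.30 for MS.gene002997, 5.06 for MS.gene054616, 4.75 for MS.gene80525 and 3.49 for MS.gene03499. At 8 h against 4 h they were 4.87 for MS.gene002997, 4.67 for MS.gene77725, 4.33 for MS.gene054616, 3.30 for MS.gene80525 and -4.28 for MS.gene61659. MS.gene61659 also differed at 12 h against 8 h, by 5.43. With 1 control group of no given hour, the duration of stress and the hour of sampling or plant age cannot be told apart.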

How the results depend on the processing

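Without the 4 intermediate libraries the number of genes that differed between times became 0 in all 5 comparisons. A threshold of 0.01 gave 1 gene among the 4 times (4.71% of all genes) and 3 at 24 h against 4 h (3.57%). It gave 0 at 8 h against 4 h (1.86%), at 12 h against 8 h (0.0933%) and at 24 h against 12 h (0.181%). Without a filter on low counts 9 genes passed among the 4 times (19.7% of all genes) and 7 at 24 h against 4 h (10.9%). That setting gave 6 at 8 h against 4 h (8.17%) and 2 at 12 h against 8 h (2.72%). DESeq2 gave 7 among the 4 times (34.6%) and 6 at 24 h against 4 h (23.4%). DESeq2 also gave 5 at 8 h against 4 h (18.9%) and 2 at 12 h against 8 h (9.51%). With each library left out in turn the number ran from 2 to 7 among the 4 times (8.68% to 21.2% of all genes). It ran from 3 to 5 at 24 h against 4 h (4.6% to 15.3%) and from 0 to 5 at 8 h against 4 h (2.16% to 10.6%). At 12 h against 8 h it was 0 to 2 (0.0718% to 2.91%), and at 24 h against 12 h it stayed 0 (0.171% to 3.96%). Deviations from the group mean of same-numbered libraries correlated at -0.047 to 0.156 between groups. The intermediate library, mostly near the middle of its group, has different replicate numbers at 4 h, 8 h and 12 h. These correlations therefore cannot settle whether the replicates were paired. With the replicate block 4 genes passed among the 4 times (13.2% of all genes), 4 at 24 h against 4 h (10.7%), 4 at 8 h against 4 h (6.28%), 0 at 12 h against 8 h (0.56%) and 0 at 24 h against 12 h (1.27%). The number of genes that meet the rule was 4 at 10 CPM, 28 at 2 CPM, and 3 when 6 of the 8 other stressed libraries were required. It was 10 to 14 with 1 control library left out, which can only add genes. With 1 stressed library left out it was 3 to 8. There 8 of the remaining 11 stressed libraries were still asked for, which can only remove genes. The bounds on the summed counts ran from 548 to 922 at 4 h, 2338 to 8407 at 8 h, 2457 to 5773 at 12 h and 5544 to 10900 at 24 h. Leaving out 1 library turned 5 small log2 differences, none of them called: MS.gene03499 at 24 h against 12 h (-0.31 to 0.68), MS.gene46686 and MS.gene80525 at 12 h against 8 h (-0.034 to 1.02 and -0.29 to 1.03), and MS.gene61659 and MS.gene96117 at 24 h against 4 h (-1.26 to 0.020 and -0.071 to 1.26). The cause was not tested. Counts of 0 to 3 limit the values of MS.gene46686, MS.gene61659, MS.gene72495 and MS.gene03499 in single libraries.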
